A study of Mus musculus with 6 samples.

Results

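The genes described here are 33 markers of microglia and macrophages, chosen by symbol for where they are known to be expressed. The choice was made with earlier results of these data known. All 33 were found among the 47480 genes of the deposited table. They were compared between VMHpvlm and VMHpvll, neighbouring areas of the ventrolateral part of the ventromedial hypothalamus (VMH), a nucleus made mostly of glutamatergic neurons. VMHpvlm had 3 libraries and VMHpvll had 3 libraries, all from female mice that carry VgluT2-cre and the Ai6 reporter. In these mice Cre is made where VgluT2 (Slc17a6) is expressed and switches on a green fluorescent protein, so the reporter marks neurons and not microglia. The tissue was cut from frozen coronal sections by laser capture and sequenced as total RNA. The sources used here do not give the age of the mice, how many mice stand behind a library, or how the borders of the areas were drawn. Each title carries a name, F19, F20 or KH_161103, that occurs once per area, and the libraries of a name were treated as a pair.

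Microglia are the resident macrophages of the brain. They depend on signalling through the receptor encoded by Csf1r, sense nucleotides and chemokines through surface receptors, and clear material tagged by complement through phagocytosis and lysosomal proteases. Macrophages at brain borders and around vessels share many of these genes but carry receptors such as those encoded by Mrc1 and Cd163. In bulk tissue of this kind, fewer microglia and less of an RNA per microglial cell cannot be told apart.

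Depth ran from 7157831 to 11293159 recovered reads per library, and the 33 markers together received between 1460 and 2440 of them. Slc17a6, the gene whose promoter drives Cre, had normalised counts of 4533 to 4810 in VMHpvlm and 4928 to 4962 in VMHpvll. Fezf1, a transcription factor of VMH neurons, had 1174 to 1205 in VMHpvlm and 628 to 657 in VMHpvll. Nr5a1 had 286 to 322 in VMHpvlm and 26.8 to 39.3 in VMHpvll. Esr1 went the other way, with 429 to 568 in VMHpvlm and 1434 to 1560 in VMHpvll. The tissue of the areas thus differed in more than the markers studied here. The markers of other cell types in the cut tissue were present too, and their values are given beside the results they touch. Levels below are normalised counts, that is, reads per gene divided by 1 scaling factor per library. A difference is VMHpvlm minus VMHpvll in log2(normalised count + 1), fitted by limma with the pair name as a block.

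None of the markers differed between the areas at the threshold used. Of the 33 markers, 32 had a mean of at least 10 and were tested, and 0 of 32 had a Benjamini-Hochberg adjusted p below 0.05 by limma, where 20% of all 14522 tested genes did (10.5% higher in VMHpvlm and 9.48% higher in VMHpvll). Most markers were of low level, with 17 of the 32 at a mean below 50. Among all tested genes with a mean from 10 to below 50, 9.22% were called, and 16.0% were called among those with a mean from 50 to that of the highest marker. At an unadjusted p below 0.05, limma gave 5 of 32 markers, all higher in VMHpvll, where 29.8% of all tested genes passed in either direction and 14.2% passed toward VMHpvll. By edgeR on the recovered reads 0 markers were called, where 20.9% of all tested genes were, and 4 markers had an unadjusted p below 0.05. By DESeq2 0 markers were called, where 8.47% of all tested genes were, and 0 had an unadjusted p below 0.05.

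Most fitted differences were small, with quartiles of -0.28 and 0.005. The 32 differences ran from -0.95 for Tyrobp to 0.28 for P2ry13, and 24 lay below 0, where 49.5% of all tested genes did. The median of the markers was -0.11, beside 0.002 for all genes tested. The median within a pair was -0.26 in F19, -0.004 in F20 and -0.02 in KH_161103, and without the F19 pair the median of the fitted differences was 0.013. Its sign thus depended on the F19 pair. For 27 of the 32 markers the 95% interval of the difference lay wholly within a 2-fold change in either direction, and for 15 it lay within a 1.5-fold change. The 5 wider intervals belonged to Tyrobp, Fcer1g, Cd53, Unc93b1 and Spi1.

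**Figure D1:**
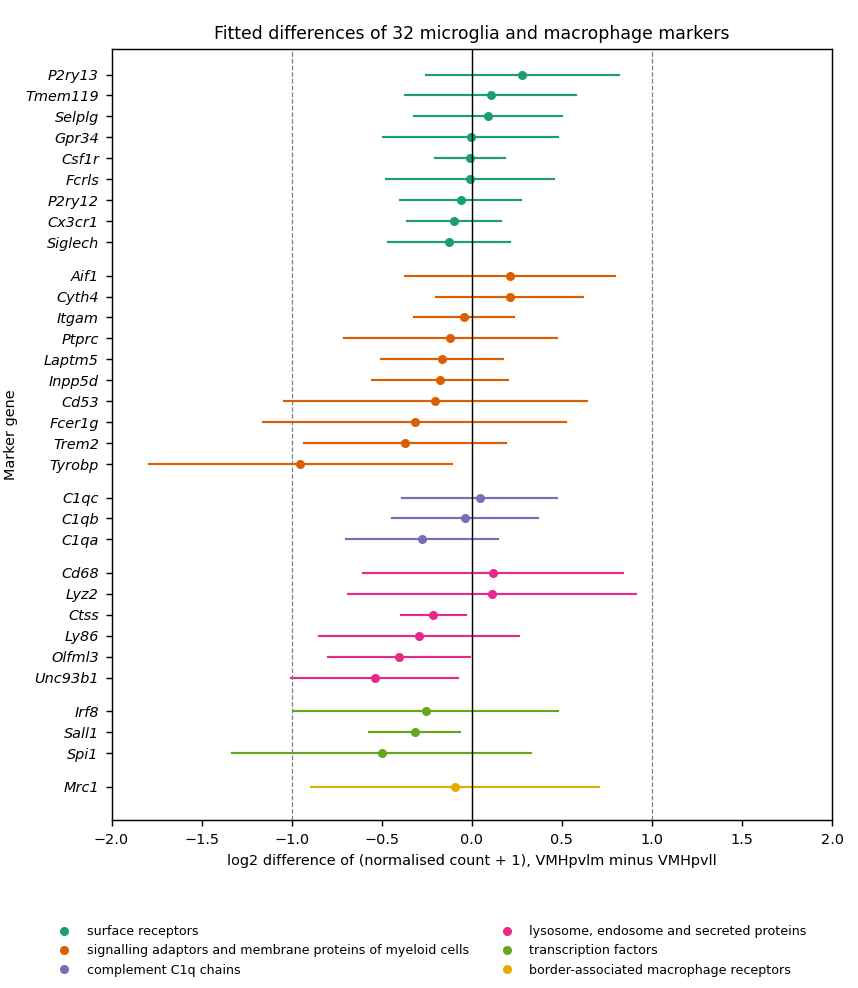
Fitted log2 difference (horizontal axis, VMHpvlm minus VMHpvll) of the 32 tested markers, grouped by role and coloured by group, with lines giving the 95% interval and dashed lines at a 2-fold change. The differences ran from -0.95 for Tyrobp to 0.28 for P2ry13, and 27 intervals lay between the dashed lines.

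The levels of the markers spanned a wide range once set on a common scale. Per kilobase of exon, Ctss, which encodes the lysosomal protease cathepsin S, was the highest, at 231.5 ± 18.5 normalised counts per kilobase in VMHpvlm and 269.2 ± 29.2 in VMHpvll (SD, n = 3 each). C1qa, C1qb and Csf1r followed, with means between 48.8 and 62.3 per kilobase in either area. Cx3cr1, P2ry12, Sall1 and Itgam lay between 26.1 and 36.2, and the lowest markers were Irf8, Mrc1, Ptprc and Cd163, between 0.922 and 2.56. Exon lengths were the union of all annotated isoforms, so a gene with long rare isoforms is set too low on this scale. The exons of 4 markers overlap another annotated gene, and their reads are uncertain to that extent. The overlap covers 68.7% of the exon bases of Itgam (with Gm49368, on the same strand) and 15.1% of those of Csf1r (with Hmgxb3, on the opposite strand), 1.7% of those of Cx3cr1 and 0.4% of those of P2ry12.

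**Figure D2:**
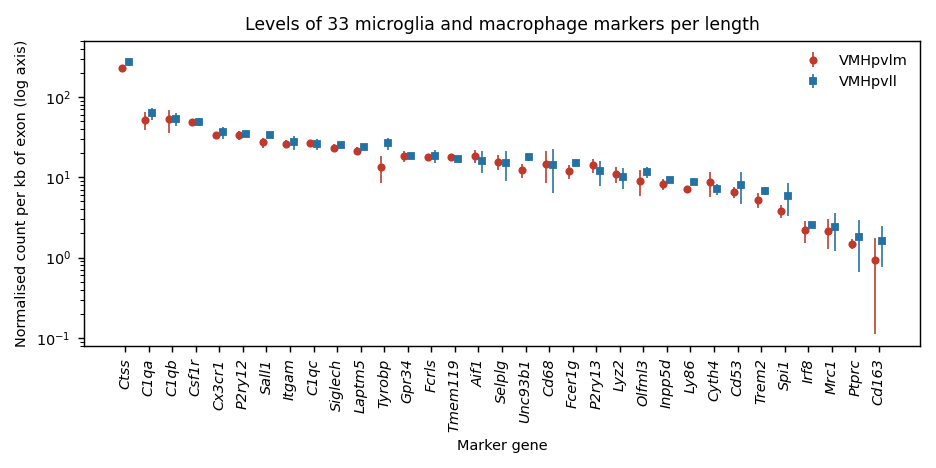
Mean and SD (3 libraries per area) of the normalised count per kilobase of exon for the 33 markers, on a log axis, ordered from high to low. Ctss stands above the rest, at 231.5 in VMHpvlm and 269.2 in VMHpvll, and Cd163 is the lowest, at 0.922 in VMHpvlm and 1.63 in VMHpvll.

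The surface receptors of microglia were at like levels in both areas. Csf1r, the receptor for CSF1 and IL-34 on which the survival of microglia depends, had normalised counts of 278, 272 and 295 in the F19, F20 and KH_161103 libraries of VMHpvlm, against 304, 249 and 301 in those of VMHpvll. The VMHpvlm values lay within the range of the VMHpvll values, and the log2 difference was -0.011 (95% interval -0.20 to 0.18, limma adjusted p = 0.959). Cx3cr1, the fractalkine receptor, had 141, 154 and 159 in VMHpvlm against 195, 149 and 146 in VMHpvll. The F19 library of VMHpvll stood above the other 5, and the difference was -0.10 (95% interval -0.36 to 0.16, limma adjusted p = 0.673). P2ry13, a nucleotide receptor, had the largest difference toward VMHpvlm of the 32 markers, with 40.6, 27.8 and 39.1 in VMHpvlm against 41.8, 25.3 and 22.8 in VMHpvll (0.28, 95% interval -0.26 to 0.81, limma adjusted p = 0.530). Its groups overlapped, and the KH_161103 pair alone gave 0.75 where the F19 pair gave -0.04.

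The other 6 receptors of this group were not called, with differences between -0.13 and 0.10. P2ry12, the receptor by which microglial processes sense ADP, averaged 85.0 ± 11.2 in VMHpvlm and 88.6 ± 8.42 in VMHpvll. Tmem119, a membrane protein used to tell microglia from blood-derived macrophages, averaged 41.8 ± 3.45 in VMHpvlm and 38.8 ± 2.57 in VMHpvll. Siglech, a sialic acid-binding lectin, averaged 78.4 ± 8.66 in VMHpvlm and 85.4 ± 6.42 in VMHpvll. Gpr34, a receptor for lysophosphatidylserine, Fcrls, an Fc receptor-like protein, and Selplg, the ligand of P-selectin, had differences of -0.007, -0.013 and 0.09. Summed over the 9 receptors, the level was 800.5, 815 and 847 in VMHpvlm and 909, 743 and 857 in VMHpvll, so the sums overlapped. P2ry12 and P2ry13 are neighbours on chromosome 3 (mm10), at 59216272 to 59262871 and 59207892 to 59210882.

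**Figure D3:**
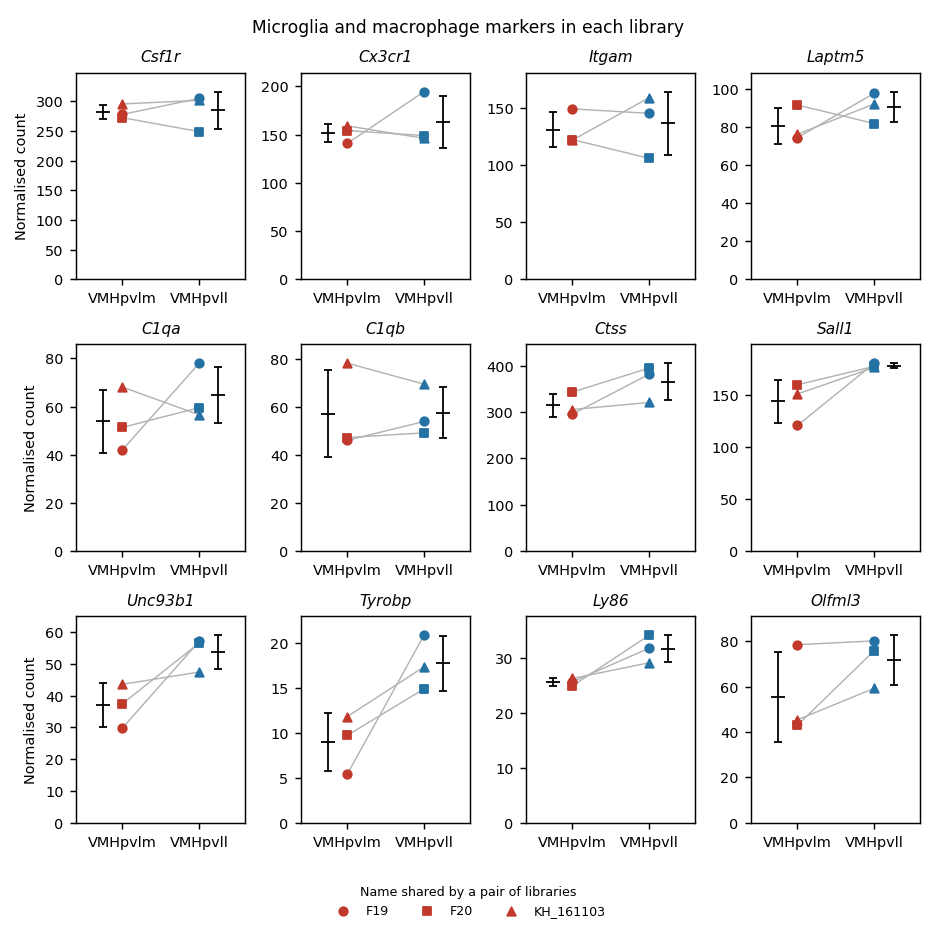
Normalised counts of 12 markers in each library, where a grey line connects each pair and a black mark with whiskers shows the mean ± SD (n = 3). VMHpvlm lies below VMHpvll with no overlap for Sall1, Unc93b1, Tyrobp and Ly86, and the areas overlap for the other 8 genes.

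Among the signalling proteins of myeloid cells, Tyrobp stood apart from the rest in size but not by the test. Tyrobp encodes DAP12, the adaptor that carries the signal of TREM2 and other receptors. It had 5.42, 9.72 and 11.8 in the VMHpvlm libraries, against 20.9, 14.9 and 17.3 in the VMHpvll libraries, which rest on 4, 7 and 13 reads in VMHpvlm and 19, 10 and 19 reads in VMHpvll. All 3 VMHpvlm values lay below all 3 VMHpvll values, and the log2 difference was -0.95 ± 0.42 SE (95% interval -1.79 to -0.11, limma adjusted p = 0.107). Counting error alone is 28.9% at the mean number of reads of Tyrobp. Without the F19 pair the difference of Tyrobp was -0.544, and leaving out other libraries gave up to -1.169. Trem2, the receptor for lipids and lipoproteins that signals through DAP12, averaged 25.8 ± 5.57 in VMHpvlm and 33.3 ± 3.79 in VMHpvll, and the difference was -0.37 (95% interval -0.93 to 0.19, limma adjusted p = 0.403). Fcer1g, the related adaptor of Fc receptors, averaged 10.5 ± 2.08 in VMHpvlm and 13.2 ± 1.23 in VMHpvll, and the difference was -0.32 (95% interval -1.16 to 0.53, limma adjusted p = 0.673). The differences of Tyrobp, Trem2 and Fcer1g were not tested against each other.

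Itgam, the integrin subunit CD11b, had 149, 122 and 122 in VMHpvlm against 145, 106 and 159 in VMHpvll, and Laptm5, a lysosomal membrane protein of blood cells, had 74.5, 91.6 and 76.3 in VMHpvlm against 97.8, 81.9 and 92.2 in VMHpvll. In neither gene were the areas apart, with differences of -0.05 and -0.17. Aif1, which encodes IBA1, the calcium-binding protein by which microglia are commonly stained, had 32.5, 29.1 and 22.7 in VMHpvlm against 26.4, 31.3 and 16.4 in VMHpvll (0.21, 95% interval -0.37 to 0.80, limma adjusted p = 0.686). Inpp5d, the lipid phosphatase SHIP1 that acts against PI3-kinase, averaged 63.2 ± 9.78 in VMHpvlm and 71.2 ± 6.32 in VMHpvll. Cyth4, an exchange factor for ARF proteins, averaged 64.99 ± 22.04 in VMHpvlm and 54.1 ± 8.76 in VMHpvll, and the tetraspanin gene Cd53 averaged 11.55 ± 1.82 in VMHpvlm and 14.1 ± 6.14 in VMHpvll. Ptprc, the leukocyte phosphatase CD45, was uneven within VMHpvll, at 57.2 in the F19 library and 19.4 and 22.8 in the others, and lay between 22.7 and 30.5 in VMHpvlm, which was chosen for mention after its values were seen.

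The chains of complement C1q, which tags synapses and debris for removal, were not called. C1qa had 42.0, 51.4 and 68.1 in VMHpvlm against 78.0, 59.6 and 56.6 in VMHpvll. C1qb had 46.05, 47.2 and 78.1 in VMHpvlm against 53.9, 49.1 and 69.4 in VMHpvll, and C1qc averaged 51.3 ± 5.44 in VMHpvlm and 49.9 ± 7.61 in VMHpvll. The values of the areas overlapped for each chain, with differences of -0.28, -0.04 and 0.04 (limma adjusted p = 0.409, 0.934 and 0.926). The pairs did not point the same way. In the F19 pair all 3 chains were lower in VMHpvlm (log2 differences of -0.88, -0.22 and -0.31 for C1qa, C1qb and C1qc), and in the KH_161103 pair all 3 were higher in VMHpvlm (0.26, 0.17 and 0.27). The 3 genes lie side by side on chromosome 4 (mm10), C1qb at 136880129 to 136886187, C1qc at 136889804 to 136893065 and C1qa at 136895917 to 136898803.

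None of the 6 genes of lysosomes, endosomes and secreted proteins was called, and Ctss, Unc93b1 and Olfml3 had an unadjusted p below 0.05. Ctss had 295, 343 and 305 in VMHpvlm against 381, 395 and 320 in VMHpvll. It was lower in VMHpvlm in 3 of 3 pairs, although the areas overlapped, and the difference was -0.21 ± 0.09 SE (95% interval -0.39 to -0.035, limma adjusted p = 0.0855). Unc93b1, the chaperone that brings nucleic acid-sensing Toll-like receptors to endosomes, had 29.8, 37.5 and 43.6 in VMHpvlm against 57.2, 56.6 and 47.5 in VMHpvll. Its areas did not overlap, and the difference was -0.54 ± 0.23 SE (95% interval -1.002 to -0.078, limma adjusted p = 0.0951). Olfml3, a secreted glycoprotein of microglia, had 78.6, 43.0 and 45.4 in VMHpvlm against 80.2, 76.0 and 59.3 in VMHpvll. The F19 library of VMHpvlm lay within the VMHpvll range and the other 2 lay below it (-0.40, limma adjusted p = 0.155). Ly86, which encodes the partner MD-1 of a Toll-like receptor homologue, had 25.7, 24.985 and 26.3 in VMHpvlm against 31.9, 34.3 and 29.2 in VMHpvll, again without overlap (-0.29, limma adjusted p = 0.521). Cd68, a lysosomal glycoprotein of phagocytes, and Lyz2, a lysozyme, were not called, at 0.12 and 0.11, and their levels varied within an area, from 7.45 to 27.5 for Cd68 in VMHpvll.

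The 3 transcription factors were lower in VMHpvlm on average, and none was called. Sall1, which in adult mouse brain marks microglia and maintains their identity, came closest to the threshold of all markers. It had 121, 160 and 151 in VMHpvlm against 180, 177 and 176 in VMHpvll. The VMHpvll libraries were nearly identical and lay above all VMHpvlm libraries, and the difference was -0.32 ± 0.13 SE (95% interval -0.57 to -0.065, limma adjusted p = 0.0684). Without the F20 pair Sall1 was the only marker called, with a difference of -0.40 and a limma adjusted p of 0.0351, and without the F19 pair the difference was -0.19 with an adjusted p of 0.505. Irf8, an interferon regulatory factor needed for microglial development, had 10.8, 15.3 and 19.98 in VMHpvlm against 19.8, 17.9 and 16.4 in VMHpvll. Spi1, which encodes PU.1, the factor that drives the myeloid programme, averaged 10.35 ± 1.95 in VMHpvlm and 15.8 ± 7.02 in VMHpvll, and its interval was wide (-1.33 to 0.33).

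PU.1 binds an ETS motif, for which GAGGAAGT was searched on both strands of the promoter windows in RefSeq (GRCm38.p6), which reach from 250 bases before to 50 bases after an annotated start. Of the 33 markers, 25 had a window, and 5 of these 25 (20%) held the motif, against 3.69% of all 27025 genes with a window. The 5 were Ctss, Inpp5d, Cd53, C1qc and Cyth4. A match is a description of these letters only. In C1qc the match began 195 bases before the start and in Cyth4 at base 27 after it. The windows of Ctss, Inpp5d and Cd53 are shown from 70 bases before to 30 bases after the start, as the ones in which the motif, in capitals, lay closest to the start. Each is written 5′ to 3′ on the strand of the gene. Ctss lies on the plus strand (chr3:95526716-95526815) and carries the motif as its reverse complement, from 2 bases before the start. Inpp5d lies on the plus strand (chr1:87620242-87620341) and carries it in the forward sense from 20 bases before the start. Cd53 lies on the minus strand (chr3:106790120-106790219) and carries the reverse complement from base 7 after the start.
Ctss: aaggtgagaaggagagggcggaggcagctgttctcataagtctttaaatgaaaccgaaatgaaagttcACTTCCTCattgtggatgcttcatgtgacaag
Inpp5d: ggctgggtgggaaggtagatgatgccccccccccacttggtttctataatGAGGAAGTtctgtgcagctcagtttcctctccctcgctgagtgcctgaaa
Cd53: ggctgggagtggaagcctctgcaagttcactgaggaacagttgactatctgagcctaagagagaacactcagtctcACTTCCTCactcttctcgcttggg

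Receptors of border-associated macrophages were of low level, and Cd163 was close to the limit of detection. Mrc1, the mannose receptor CD206, had 13.5, 19.4 and 8.17 in VMHpvlm against 21.985, 16.4 and 7.30 in VMHpvll, and the areas overlapped (-0.09, limma adjusted p = 0.913). Cd163, the haemoglobin scavenger receptor, was the marker that did not reach the filter. It had 6.77, 8.33 and 0 in VMHpvlm against 14.3, 5.96 and 6.39 in VMHpvll, where 3 reads correspond to a level of 2.725 to 4.47 depending on the library. Of 19 further genes of these macrophages, 3 were tested (Dab2, Colec12 and Stab1) and 0 were called by limma. Over all tested genes 20% were called, so 0 calls among so few genes say little. By limma, Colec12 and Stab1 had an unadjusted p of 0.037 and 0.048, both lower in VMHpvlm, and Dab2 had 0.059. The 3 are also expressed by other cells of vessels and meninges, and the remaining 16 had means from 0 to 7.39. Of 26 markers of blood leukocytes, 2 were tested (Mmp9 and Trac) and 0 were called by limma, again beside 20% of all tested genes. By limma, Mmp9 had an unadjusted p of 0.038, higher in VMHpvlm, and Trac had 0.237. Of the 26 markers, 11 were at 0 in every library, among them Ly6g, Cd3g, Cd79a and Nkg7. The summed level of that list was 27.2 to 39.3 in VMHpvlm and 17.9 to 37.4 in VMHpvll.

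Taken over the 33 markers, the summed level was 2002, 2113 and 2153 in VMHpvlm and 2460, 2174 and 2228 in VMHpvll. The sums did not overlap, and the ratio of the means was 0.913. As a share of all recovered reads the markers summed to 192, 207 and 210 CPM in VMHpvlm and 233, 204 and 218 CPM in VMHpvll. These shares overlapped, so the separation of the sums depended on the scaling. Gm42418 alone took 11.6% to 15.1% of the reads in the VMHpvlm libraries and 14.4% to 17.9% in the VMHpvll libraries. Its part in these shares was not tested. Ctss, Csf1r, Sall1, Cx3cr1 and Itgam made up 49.1% of the summed level of the markers. Of the 32 tested markers, 4 were lower in VMHpvlm without overlap (Sall1, Unc93b1, Tyrobp and Ly86) and 0 were higher without overlap, where 13.5% of all tested genes were lower and 14.5% were higher. In 3 of 3 pairs, 7 of 32 markers were lower in VMHpvlm and 0 were higher, beside 23.2% and 24.9% of all tested genes.

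Markers of the other glia and of vessels had medians further from 0 than those of microglia. Of all tested genes, 9.48% were called toward VMHpvll and 10.5% toward VMHpvlm. Gene means reached 5976 for oligodendrocytes, 22150 for astrocytes and 703.7 for endothelial and mural cells, against 340 for the microglia markers. The counts of calls are thus not compared at like levels. The lists were also chosen with earlier results of these data known. Among 20 markers of oligodendrocytes, 15 were called toward VMHpvll and 0 toward VMHpvlm (median -0.40), and their summed level was 14117 to 15958 in VMHpvlm and 18794 to 20140.5 in VMHpvll. Among 20 markers of astrocytes, 12 were called toward VMHpvll and 0 toward VMHpvlm (median -0.23), with sums of 40750 to 43242 in VMHpvlm and 47047 to 52771 in VMHpvll. Among 20 endothelial and mural markers, 8 were called toward VMHpvll and 0 toward VMHpvlm (median -0.46), with sums of 2772 to 3155 in VMHpvlm and 3852.5 to 4462 in VMHpvll. Among 20 genes shared by most neurons, 7 were called toward VMHpvlm and 1 toward VMHpvll (median 0.075). Their sums overlapped, at 121406.5 to 129730 in VMHpvlm and 119947 to 128742 in VMHpvll. Of 7 genes of red blood cells 3 were tested and 0 were called by limma. No gene of these 5 lists was at 0 in every library. Their part in the lean of the microglia markers toward VMHpvll was not tested.

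**Figure D4:**
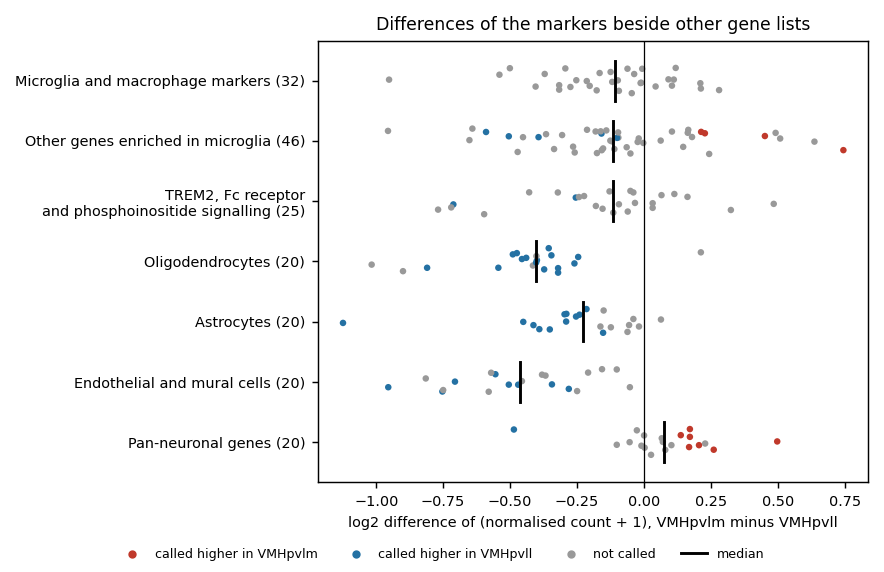
Fitted log2 differences (horizontal axis, VMHpvlm minus VMHpvll) of the tested genes of 7 lists, 1 point per gene, where the bracketed number counts the genes and the black tick is their median. Red marks a call toward VMHpvlm, blue a call toward VMHpvll and grey no call. The microglia and macrophage markers hold grey points only, with a median of -0.11, and the oligodendrocyte markers have a median of -0.40.

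Of 65 other genes enriched in microglia, 46 were tested, of which 4 were higher in VMHpvlm and 5 in VMHpvll (median -0.12), a share close to the 20% called over all tested genes. The 3 with the smallest limma p were Ctsb, the lysosomal protease cathepsin B (3313 ± 72.2 in VMHpvlm and 2861 ± 158 in VMHpvll, limma adjusted p = 4.63e-05), Rgs10, a regulator of G protein signalling (174 ± 19.2 in VMHpvlm and 247.5 ± 29.8 in VMHpvll, limma adjusted p = 0.000915), and the transcription factor gene Mef2c (274 ± 40.4 in VMHpvlm and 202.5 ± 52.5 in VMHpvll, limma adjusted p = 0.00166). All 3 are also expressed in neurons. The call of Mef2c was lost without the pair block, without the F20 pair and by DESeq2, and that of Rgs10 by DESeq2. With a variance prior without trend or robust, limma called none of Ctsb, Rgs10, Mef2c, Apoe, Dock2, Lpl, Il34, Cx3cl1, Cd200 and Gas6. Itgb2, the integrin partner of Itgam, averaged 21.4 ± 2.09 in VMHpvlm and 34.6 ± 7.44 in VMHpvll (-0.65, limma adjusted p = 0.104). Itgb2 was chosen after its values were seen.

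Of 31 genes that act in TREM2, Fc receptor and phosphoinositide signalling, 25 were tested, of which 0 were higher in VMHpvlm and 2 in VMHpvll (median -0.12), where 10.5% and 9.48% of all tested genes were. Apoe, which encodes an apolipoprotein made mainly by astrocytes and bound by TREM2, had 9741, 11320 and 10327 in VMHpvlm against 12016, 13271 and 12134 in VMHpvll (-0.26, limma adjusted p = 1.26e-09). Dock2, an activator of RAC in blood cells, averaged 51.4 ± 4.86 in VMHpvlm and 86.4 ± 20.8 in VMHpvll (-0.71, limma adjusted p = 0.00389), a call lost without the KH_161103 pair and by DESeq2. Of 33 activation-associated genes in the table, 7 were tested and 1 was called: Lpl, lipoprotein lipase, which neurons also express, was higher in VMHpvlm (74.5, 76.3 and 84.5 in VMHpvlm against 32.98, 40.2 and 22.8 in VMHpvll, limma adjusted p = 1.02e-05). Tnf, Ccl4, Cst7 and Clec7a were at 0 in every library.

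Of 22 ligands and signals that microglia read from neurons and other cells, 21 were tested, of which 3 were higher in VMHpvlm, 5 were higher in VMHpvll and 13 were not called (median -0.18). Over all tested genes 10.5% were called higher in VMHpvlm and 9.48% higher in VMHpvll. Il34, a neuronal ligand of the Csf1r product, had 148, 142 and 163 in VMHpvlm against 70.4, 106 and 102 in VMHpvll. It was 1.62-fold higher in VMHpvlm, with no overlap (0.71, 95% interval 0.42 to 1.01, limma adjusted p = 0.000207). Csf1, the other ligand of that receptor, had 157, 153 and 144 in VMHpvlm against 139, 121 and 115 in VMHpvll, without overlap and without a call (0.28, limma adjusted p = 0.140). Cx3cl1, fractalkine, the neuronal ligand of the Cx3cr1 product, had 1950, 1866 and 1892 in VMHpvlm against 1314, 1599 and 1403 in VMHpvll. It was 1.32-fold higher in VMHpvlm (0.41, 95% interval 0.30 to 0.51, limma adjusted p = 5.77e-08). The intervals of Csf1r (-0.20 to 0.18) and Cx3cr1 (-0.36 to 0.16) lie below those of Il34 and Cx3cl1. That of Csf1 (0.015 to 0.54) overlaps that of Csf1r. The difference between ligand and receptor was not itself tested. Il34 and Csf1 were chosen as ligands of Csf1r after their values were seen.

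Cd200, a membrane protein of neurons that restrains microglia, went the other way, with 1342, 1277 and 1225 in VMHpvlm against 1528, 1480 and 1788 in VMHpvll. It was 1.248-fold higher in VMHpvll (-0.32, limma adjusted p = 4.41e-05), while its receptor gene Cd200r1 was at 0 to 2.20 in all libraries, on 0 to 2 reads each. Gas6, a bridging ligand of the phagocytic receptors AXL and MERTK, averaged 714 ± 72.9 in VMHpvlm and 918 ± 42.8 in VMHpvll (-0.37, limma adjusted p = 8.10e-06).

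**Figure D5:**
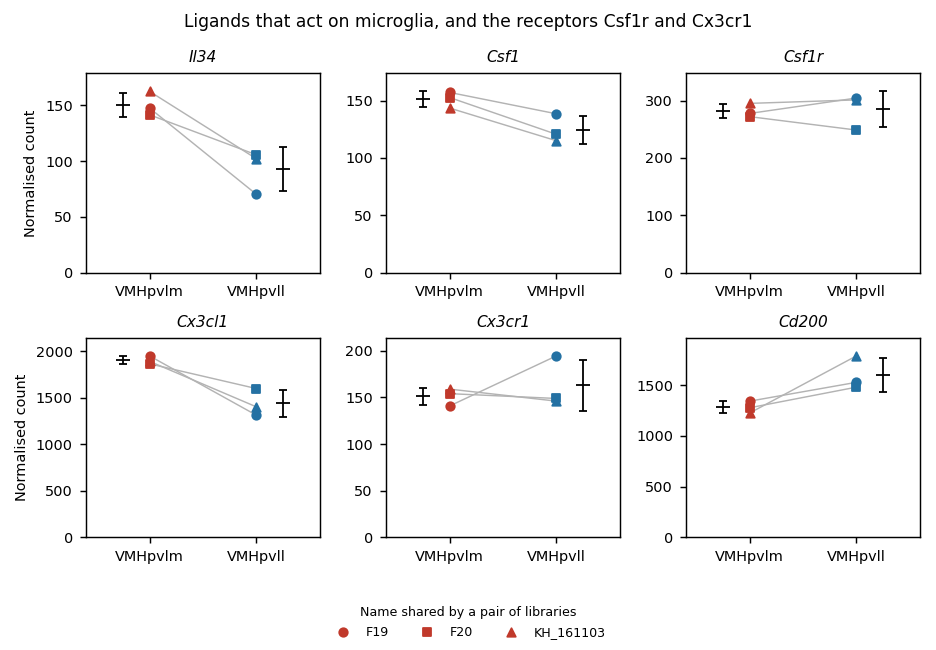
Normalised counts in each library of 4 ligand genes (Il34, Csf1, Cx3cl1 and Cd200) and of the receptor genes Csf1r and Cx3cr1, where a grey line connects each pair and a black mark with whiskers shows the mean ± SD (n = 3). Il34 and Cx3cl1 are higher in VMHpvlm in 3 of 3 pairs and Cd200 is higher in VMHpvll in 3 of 3 pairs, and the areas overlap for Csf1r and Cx3cr1.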

How the data were processed

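The deposited values are a normalised signal in which each library's gene counts were divided by a single factor, since 100% of the non-zero values of each library corresponded to a whole number of reads (tolerance 0.05 reads). The submitters' processing notes name HISAT2, featureCounts and mm10 and no version. The annotation, scaling tool and use of strand: not given in the sources used here. Of the gene names, 27 had become dates, and no marker was among them.

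With limma 3.58.1 (R 4.3.3, trend and robust options), log2(value + 1) was tested in the 14522 genes whose mean reached 10, with the pair name as a fixed block. Two-sided p-values received the Benjamini-Hochberg adjustment over all tested genes, and an adjusted p below 0.05 was a call. The script was tested on simulated counts that held no pair effect, so that test does not check the pairing. The design with the pair block leaves 2 residual degrees of freedom, to which the variance prior adds a median of 39.9. Deviations from the area means correlated at 0.26, 0.24 and 0.36 for same-named libraries, so the names were taken to pair them. For others the correlation ran from -0.247 to 0.007. The deviations of a gene cancel within an area, so positive values for same names pull the others down. The gap between them is thus partly built in. Whether same-named libraries come from the same animal is not stated. The p-values rest on the spread of the differences within these pairs and, through the variance prior, on the spread of other genes. They say nothing beyond these libraries. Whole reads recovered from the values were tested with edgeR 4.0.16 (3031 genes called) and DESeq2 1.42.0 (1230 genes called). Exon lengths and positions came from GENCODE M21. Counting error assumes independent reads. The markers and lists were chosen with earlier results of these data known. Values in every library are given for markers with non-overlapping areas, the 2 highest of each role and the largest differences, and for other lists up to 3 called genes with the smallest p, beside genes named as chosen later.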

Additional observations from a re-analysis of the deposited data

How the results depend on the processing

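Under 12 settings other than leaving out libraries, 0 markers were called, and the smallest adjusted p of any marker was 0.0547 (Sall1 with a minimum mean of 50). The median difference of the markers lay between -0.132 (edgeR) and -0.086 (libraries scaled to the same total), and leaving out libraries gave -0.187 to 0.013. Leaving out a pair or a library gave 0 to 1 called markers. With the fixed block, leaving out 1 library removes its pair from the comparison, so those fits nearly repeat the fits without the pair. Over all tested genes, 2905 were called with the replicate block and 1800 without it (937 higher in VMHpvlm, 863 higher in VMHpvll). The block changed no call of a marker. A variance prior without trend or robust gave 422 (189 and 233) and ended the calls of 21 of the 22 other genes named or listed first by p, of which DESeq2 ended 4. DESeq2 gave 1230 (648 and 582). Leaving out libraries gave 1738 to 2889 (897 to 1532 and 830 to 1392), lowest without KH_161103. The cause was not tested.

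Scaling to the same total gave differences of 0.015 for Gpr34, 0.012 for Csf1r and 0.010 for Fcrls, and edgeR gave 0.017 for Gpr34 and -0.003 for Selplg, each of the opposite sign to the main value and not called. Leaving out libraries turned the sign of 15 markers, none of them called. Their ranges were -0.207 to 0.085 for Cx3cr1, -0.221 to 0.077 for P2ry12, -0.147 to 0.087 for Gpr34, -0.081 to 0.050 for Csf1r, -0.156 to 0.119 for Fcrls, -0.254 to 0.311 for Selplg, -0.172 to 0.122 for Itgam and -0.589 to 0.122 for Cd53. They were -0.495 to 0.312 for Ptprc, -0.545 to 0.026 for C1qa, -0.139 to 0.056 for C1qb, -0.070 to 0.218 for C1qc, -0.201 to 0.415 for Lyz2, -0.513 to 0.027 for Irf8 and -0.258 to 0.189 for Mrc1. Many markers that kept their sign also moved by over 1.5 times, and the following are examples. Tyrobp ranged from -1.169 to -0.544, Unc93b1 from -0.750 to -0.351 and Olfml3 from -0.592 to -0.204. Trem2 ranged from -0.560 to -0.105, Ctss from -0.285 to -0.136 and P2ry13 from 0.045 to 0.439. Sall1 ranged from -0.400 to -0.187, Spi1 from -0.793 to -0.277, Laptm5 from -0.329 to -0.055 and Inpp5d from -0.364 to -0.046. Depth limits the low markers: for 18 of the 32 tested, counting error alone is at least 15% of the mean number of reads.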
